A study of Mus musculus with 20 samples.

Results

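Genes that move, store, release or sense iron in the cell were followed in the corneal epithelium of ageing female mice. The 10 genes, out of 24552 in the deposited table, were Tfrc, Slc11a2, Steap3, Fth1, Ftl1, Ncoa4, Slc40a1, Ireb2, Aco1 and Hmox1, and they were taken from a written list by gene symbol. Tfrc, which encodes the transferrin receptor, was chosen by the rise of its normalized counts with age in these same libraries, so they are described with no test. The other 9 genes were listed for their roles. Of the 10 genes, 9 had a mean normalized count of at least 10 over the 20 libraries and entered the fit across genes. Slc40a1 did not, and is described by its values and by an exact test.

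The libraries came from naïve, wild-type female C57BL/6J (B6) mice, an inbred laboratory strain, with no treatment in any group. The epithelium was debrided from both eyes of 1 animal for each library, and there were 5 libraries in each of 4 groups, called young (2 to 3 months), 12-month (12 to 13 months), 18-month (18 to 19 months) and 24-month (24 to 25 months). Mice were bought, aged in house or obtained from an ageing colony, and the labels do not say which animal came from where, so the source of the mice and their age cannot be told apart. Libraries were made from the 3′ ends of polyadenylated RNA, and each held between 6699383 and 10762360 reads on genes (median 8731334). All values below are normalized counts, that is, read counts divided by the size factor of the library, and all differences are on the log2(normalized count + 1) scale.

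The labelled tissue carried its defining markers. Krt12, the keratin of the corneal epithelium, had mean normalized counts between 232471 and 255490 in the 4 groups. A marker was called at an adjusted p of 0.05 or less (limma) and a change of at least 1.2-fold. Of 9 corneal epithelial markers tested, 0 were called at 12 months. At 18 months, at 24 months and with the aged groups together, 1 was called up, Aldh1a1. Its log2 differences from young were 0.68, 0.67 and 0.64 (adjusted p = 0.0209, 0.0232 and 0.00316, limma). Markers of other cells also moved with age. Over all genes tested, the comparisons with young called 0.532% at 12 months, 0.673% at 18 months, 0.78% at 24 months and 1.01% with the aged groups together. Of 9 keratocyte (stromal fibroblast) markers tested, 5 were called down between young and 24 months. Col1a1 went from 929 ± 329 (SD, n = 5) to 73.1 ± 49.8 (SD, n = 5). The sum of the keratocyte markers other than Aldh3a1, which the epithelium itself makes, ranged from 1747 to 4763 in the young libraries and from 337 to 1109 in the 24-month libraries. Of 10 macrophage and dendritic cell markers tested, 0 were called at any age, which is near the share of all genes. Their sum ranged from 297 to 632 in the young libraries and from 231 to 370 in the 24-month libraries. Of 6 conjunctival and goblet cell markers tested, 2 were called down at 12 months and 2 at 18 months. At 24 months 1 was called down, and with the aged groups together 2 were. Their sum ranged from 28489 to 49826 in the young and from 24804 to 29974 in the 24-month libraries. Of 2 melanocyte markers tested, 0 were called in the comparisons with young. The sum of the 5 listed melanocyte markers ranged from 60.7 to 111.7 in the young and from 44.2 to 86.2 in the 24-month libraries. At 12 months that sum ranged from 75.4 to 1049, with a median of 93.4. Of 7 red blood cell markers, 4 were at 0 in every library, among them the globin Hbb-bs, while Alas2, the heme synthesis enzyme of the red cell, had mean counts from 26.4 to 38.2 in the 4 groups and did not pass the test. In bulk tissue, fewer cells of a type and less RNA per cell cannot be told apart.

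Cells take up most of their iron as transferrin, which binds the transferrin receptor and is carried into the endosome, where iron is released, reduced and moved to the cytosol. Iron that is not used is kept in ferritin, a shell of heavy and light chains, and leaves the cell through ferroportin. In the cytosol, iron regulatory proteins bind hairpins called iron-responsive elements in messenger RNA when iron is scarce: a hairpin ahead of the coding region blocks translation, as in the ferritins, and hairpins behind it protect the messenger RNA from decay, as in Tfrc.

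The hairpins are shown because they mark which of the 10 messenger RNAs carry the element in a form that can be found by its letters. A C, 5 bases, the loop CAGTGN and 5 bases pairing with the first 5 (G with T allowed) were searched on the sense strand of the annotated transcripts of GRCm38. Of the 10 genes, 4 held at least 1 such hairpin, against 1.342% of 21901 protein-coding genes searched. Some of the 10 are known carriers of the element, so the gap between these shares was set by the list and is no finding. Each is printed 5′ to 3′ over 29 bases with the loop in capitals. The letters A to D give only the order of the Tfrc matches along the transcript, and are not the names used elsewhere for its elements.
Tfrc hairpin A: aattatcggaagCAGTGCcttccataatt
Tfrc hairpin B: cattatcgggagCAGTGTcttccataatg
Tfrc hairpin C: ctatatcggagaCAGTGAtctccatatgt
Tfrc hairpin D: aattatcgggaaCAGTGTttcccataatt
Fth1 hairpin: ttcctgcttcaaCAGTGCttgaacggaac
Ftl1 hairpin: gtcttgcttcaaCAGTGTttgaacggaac
Slc40a1 hairpin: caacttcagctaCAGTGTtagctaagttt

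The 4 Tfrc hairpins lie in the 3′ UTR on the plus strand of chromosome 16, within 520 bases, at chr16:32631219-32631247, chr16:32631598-32631626, chr16:32631663-32631691 and chr16:32631710-32631738. The other 3 lie in 5′ UTRs, that of Fth1 at chr19:9982732-9982760 on the plus strand, that of Ftl1 at chr7:45459779-45459807 on the minus strand and that of Slc40a1 at chr1:45925465-45925493 on the minus strand. No hairpin of this form was found in Slc11a2, which says only that these letters are not in its annotated transcripts. A match is a description of the sequence and no measure of binding.

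Tfrc, at chr16:32608896-32632794, gave the widest spread between ages on the log2 scale among the 9 genes above the count filter. It was chosen for its rise over these ages, so this place is no finding. The young libraries had normalized counts of 111.8, 50.2, 53.9, 64.6 and 67.4, with a mean of 69.6 ± 24.7 (SD, n = 5). The 12-month libraries had 100.2, 111.8, 70.7, 91.2 and 93.0, with a mean of 93.4 ± 15.04 (SD, n = 5). None of these 5 lay above the highest young library, although 4 of the 5 young libraries lay below the lowest 12-month library.

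At 18 months the Tfrc counts were 250.02, 125.5, 81.8, 94.96 and 98.6, with a mean of 130.2 ± 68.9 (SD, n = 5), and 2 of the 5 libraries lay above every young library. At 24 months they were 254.5, 200.03, 158.9, 194.1 and 496.9, with a mean of 260.9 ± 136.3 (SD, n = 5). These 5 were each higher than any young or 12-month library, and 2 of them were higher than any 18-month library. Over the 11288 genes tested, 1.26% had all 24-month libraries above all young ones and 1.5% had them above all 12-month ones, but since Tfrc was chosen for this rise, its place among them is no finding.

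The order of the Tfrc means was young, 12-month, 18-month and 24-month, and only the 24-month libraries separated fully from the first 2 groups. Neighbouring groups overlapped in each case. On the log2 scale the 12-month group differed from young by 0.46 (SE 0.30), the 18-month group by 0.83 (SE 0.30) and the 24-month group by 1.83 (SE 0.30). The mean counts were 1.34, 1.87 and 3.75 times the young mean. These 3 comparisons share the young libraries, and the SEs of Tfrc are given as a description, with no test. Between aged groups, the log2 difference was 0.36 from 12 to 18 months and 1.00 from 18 to 24 months. With all 15 aged libraries set against the young group it was 1.04 (SE 0.32).

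One library stood above the others of its group in the young, 18-month and 24-month groups. Without it, the young mean was 59.0 ± 8.26 (SD, n = 4). Set against all 5 young libraries, the 24-month mean without its highest library was 201.9 ± 39.5 (SD, n = 4) or 2.90 times the young mean, and the 18-month mean without its highest was 100.2 ± 18.3 (SD, n = 4) or 1.44 times the young mean. The Tfrc counts at 24 months came from 168 to 528 reads in each library, and those of the young group from 59 to 102.

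**Figure D1:**
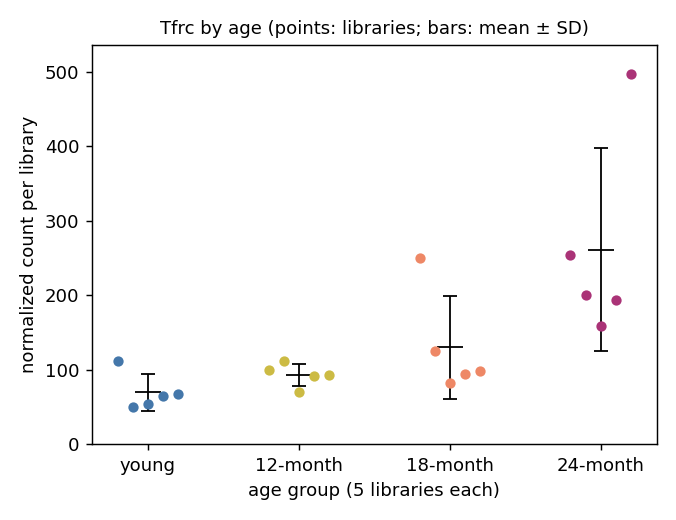
Normalized count of Tfrc (vertical axis, linear from 0) in each of 20 libraries, by age group (horizontal axis); points are libraries and bars are the mean ± SD of 5. The 24-month libraries lie between 158.9 and 496.9 and the young libraries between 50.2 and 111.8.

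Of the other 8 genes above the count filter, 0 passed the test at any age. A gene was called at an adjusted p of 0.05 or less (limma, Benjamini-Hochberg adjustment over the 11288 genes tested) and a change of at least 1.2-fold. Over all genes tested, the 12-month comparison with young called 0.532%, the 18-month comparison 0.673%, the 24-month comparison 0.78% and that of the aged groups together 1.01%, so a count of 0 of 8 is near the background and tells nothing particular about these genes. Comparing the aged groups with each other, 0 of the 8 were called as well, where 0.195% of all genes were called in the 24-month against 12-month comparison, 0.00886% in the 18-month against 12-month and 0% in the 24-month against 18-month comparison. At an unadjusted p under 0.05, the count among the 8 was 0 in each comparison with young, where 9.56% (12-month), 7.18% (18-month), 9.97% (24-month) and 7.89% (aged together) of all genes reached that mark. It was 1 in the 24-month against 12-month comparison (14.7% of all genes), 0 in the 18-month against 12-month (7.43%) and 1 in the 24-month against 18-month comparison (5.31%). In both cases that gene was Slc11a2. The median log2 difference of the 8 genes between young and 24 months was −0.11, beside 0.01 over all genes tested. Libraries of an aged group and of the young group overlapped for each of these 8 genes at every age. Over all genes tested, complete separation upward and downward was found in 0.921% and 1.06% at 12 months, 1.04% and 1.01% at 18 months and 1.26% and 1.55% at 24 months.

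Uptake past the receptor was represented by Slc11a2 and Steap3. Slc11a2, at chr15:100387898-100424209, encodes DMT1, the transporter that carries ferrous iron out of the endosome. Its counts were 464.8, 427.9, 444.7, 358.1 and 492.3 in the young libraries, and 498.3, 547.2, 690.6, 458.6 and 483.8 in the 24-month libraries. At 24 months, 3 libraries exceeded all the young ones and none was below the young range. The means were 437.6 ± 50.5, 409.8 ± 84.1, 419.4 ± 59.0 and 535.7 ± 92.4 (SD, n = 5 each) from young to 24 months. The log2 difference at 24 months was 0.28 (SE 0.15, adjusted p = 0.555, limma), with a 95% interval from −0.02 to 0.59. An exact two-sided permutation test of the same difference gave p = 0.0476, 1 of 27 such tests over 9 genes and 3 ages. Set against the 12-month group, the 24-month log2 difference was 0.39 (SE 0.15, adjusted p = 0.233, limma).

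Steap3, at chr1:120226414-120271081, encodes an endosomal reductase that turns ferric into ferrous iron before DMT1 moves it. Its counts were 180.9, 173.1, 263.9, 189.7 and 224.8 in the young libraries and 150.2, 170.8, 249.7, 185.4 and 160.9 in the 24-month libraries. At 24 months, 3 libraries were below every young one and the others lay within the young range. Its log2 difference from young was 0.04 in the 12-month, −0.19 in the 18-month and −0.18 in the 24-month group (SE 0.19, adjusted p = 0.811 for the last, limma), whose 95% interval ran from −0.57 to 0.22.

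Storage was represented by the ferritin chains and by the receptor that sends ferritin to the lysosome. Fth1, at chr19:9980600-9985111, encodes the heavy chain, which oxidises iron as it enters the shell. Its mean counts were 12392 ± 2967, 10823 ± 2074, 12029 ± 1715 and 11462 ± 1517 (SD, n = 5 each) from young to 24 months. The young libraries ran from 8569 to 16330 and those of every aged group lay within or just below that range. The log2 difference at 24 months was −0.09 (SE 0.15, adjusted p = 0.906, limma), with a 95% interval from −0.39 to 0.22.

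Ftl1, at chr7:45457944-45459886, encodes the light chain, which helps the iron core to form. Its mean counts were 127.4 ± 38.3, 107.2 ± 44.3, 128.3 ± 46.2 and 111.1 ± 23.4 (SD, n = 5 each), and the log2 difference at 24 months was −0.17 (SE 0.28, adjusted p = 0.901, limma). The ferritin counts are uncertain because ferritin genes have near-identical copies. Over the last 500 bases of the Ftl1 transcript, 290 of 426 windows of 75 bases, or 68.1%, occurred also in 6 other annotated genes, and reads there could not be assigned to 1 gene. For Fth1 the share was 7.75%, with 1 other gene, and for the other 8 genes it was 0%.

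Ncoa4, at chr14:32159879-32179855, encodes the receptor that carries ferritin to the lysosome so that its iron is released. The counts ran from 29.2 to 59.2 in the young libraries (median 40.3), from 27.6 to 102.2 at 12 months (median 78.9), from 32.6 to 78.6 at 18 months (median 40.6) and from 23.6 to 59.3 at 24 months (median 35.1). At 12 months 3 of 5 libraries were above every young one and 1 was below. That log2 difference was 0.57 (SE 0.37, adjusted p = 0.675, limma), and the difference at 24 months was −0.13 (SE 0.37, adjusted p = 0.944, limma).

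Export was represented by Slc40a1, at chr1:45908070-45926532, which encodes ferroportin, the iron exporter. Few reads fell on it: 39 over the 5 young libraries, 4 over the 12-month, 11 over the 18-month and 20 over the 24-month libraries. The normalized counts were 6.58, 1.499, 11.9, 9.54 and 8.54 in the young libraries. At 12 months 1 library had 3.68 and the other 4 had none, and at 18 months the counts were 2.44, 0, 3.97, 0 and 3.87. At 24 months they were 0, 5.69, 0, 0 and 12.2, so that the highest 24-month library was above every young one while 3 had no read. A count of 0 allows up to 3 reads in a library, for counting error only.

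The exact two-sided permutation test for Slc40a1 gave p = 0.0159 at 12 months, p = 0.0476 at 18 months and p = 0.103 at 24 months, where the smallest p that 5 libraries against 5 allow is 0.00794. In a fit with no filter on low counts, the log2 difference was −2.47 (SE 0.76, adjusted p = 0.237, limma) at 12 months, −1.64 (adjusted p = 0.644) at 18 months and −1.62 (adjusted p = 0.538) at 24 months, and these fitted values depend on the 1 added before the logarithm. Of the 27 exact tests, 3 fell under 0.05, and none of the genes passed across all genes. Ferroportin is also made by macrophages, and the median summed count of the macrophage and dendritic cell markers was 486 in the young group, 325 at 12 months, 346 at 18 months and 275 at 24 months. Their part in the Slc40a1 counts was not tested.

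**Figure D2:**
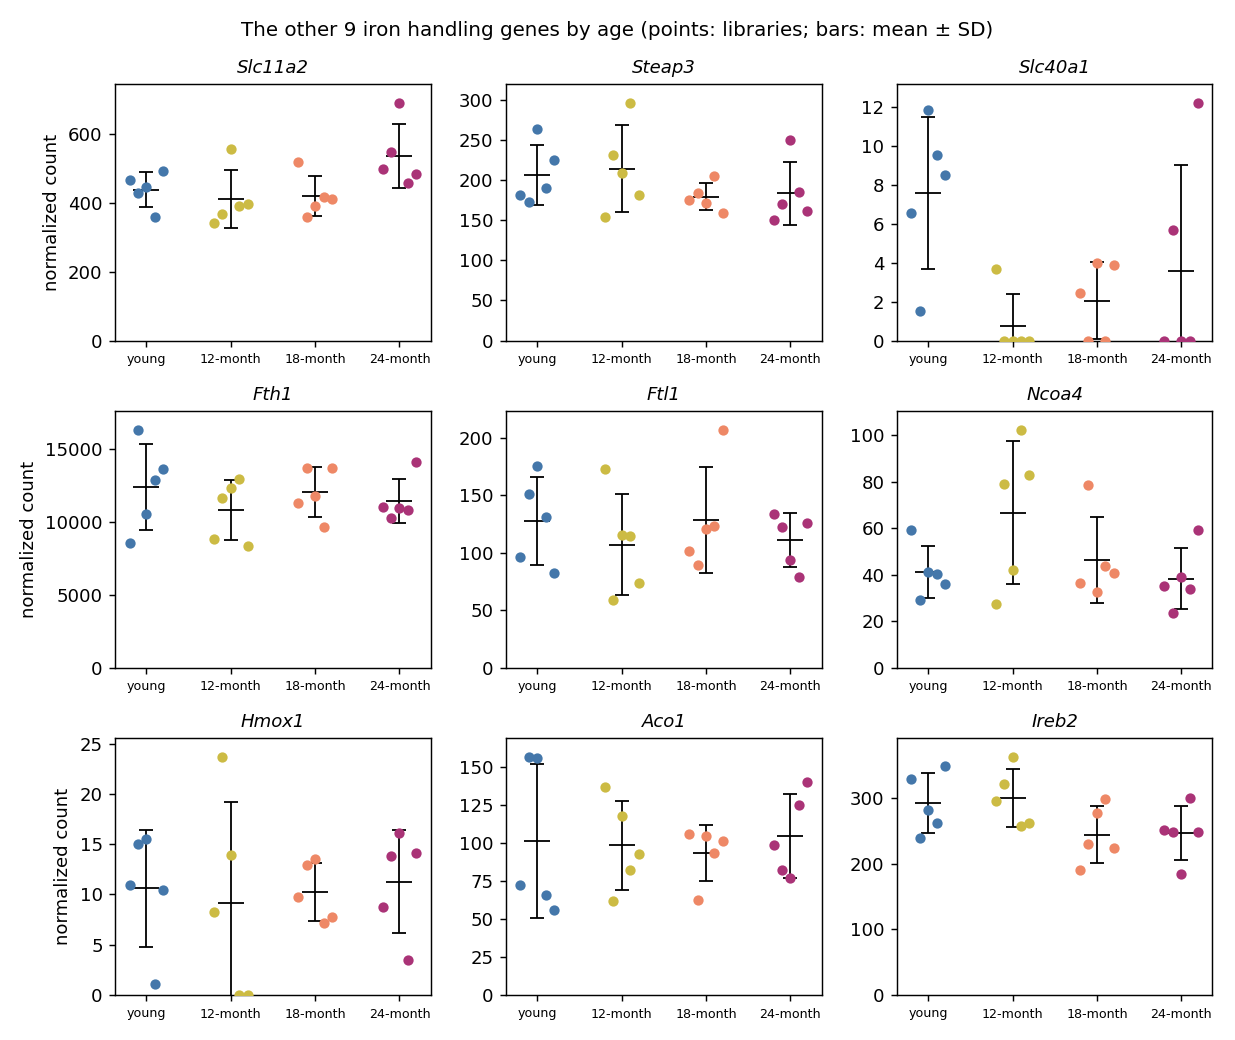
Normalized counts (vertical axes, linear from 0, a scale for each gene) of the other 9 genes in each of the 20 libraries, by age group; points are libraries and bars are the mean ± SD of 5, cut at 0. Young and aged libraries overlap in every panel, and for Slc40a1 the 12-month group holds 4 libraries at 0.

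The sensors were represented by Ireb2 and Aco1, the messenger RNAs of the proteins that bind the hairpins shown above. Ireb2, at chr9:54862658-54912534, encodes iron regulatory protein 2, which is degraded when iron is plentiful. Its counts ran from 239.8 to 349.1 in the young libraries (median 282.2), from 258.5 to 363.2 at 12 months (median 296.0), from 190.3 to 298.3 at 18 months (median 231.1) and from 184.5 to 301.1 at 24 months (median 249.4). At 18 months 3 of 5 libraries were below every young one, and at 24 months 1 was. From young, the 12-month group differed by 0.04 (SE 0.17) on the log2 scale, the 18-month group by −0.26 (SE 0.17) and the 24-month group by −0.25 (SE 0.17, adjusted p = 0.667, limma).

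Aco1, at chr4:40143265-40199009, encodes iron regulatory protein 1, which acts as an aconitase when it holds an iron-sulfur cluster. Its mean counts were 101.4 ± 50.6, 98.4 ± 29.6, 93.6 ± 18.3 and 104.6 ± 27.5 (SD, n = 5 each) from young to 24 months. No library of an aged group lay outside the young range of 56.0 to 156.6. The log2 difference at 24 months was 0.15 (SE 0.30, adjusted p = 0.922, limma), with a 95% interval from −0.47 to 0.76.

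Hmox1, at chr8:75093618-75100593, encodes heme oxygenase 1, which opens heme and frees its iron. It lay just above the count filter, with between 0 and 20 reads in a library. The counts ran from 1.06 to 15.5 in the young libraries (median 10.96), from 0 to 23.7 at 12 months (median 8.27), from 7.17 to 13.5 at 18 months (median 9.76) and from 3.48 to 16.1 at 24 months (median 13.8). At this depth its 95% interval at 24 months, from −1.54 to 2.01 around a log2 difference of 0.23 (SE 0.87, adjusted p = 0.966, limma), held changes of several-fold in either direction.

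**Figure D3:**
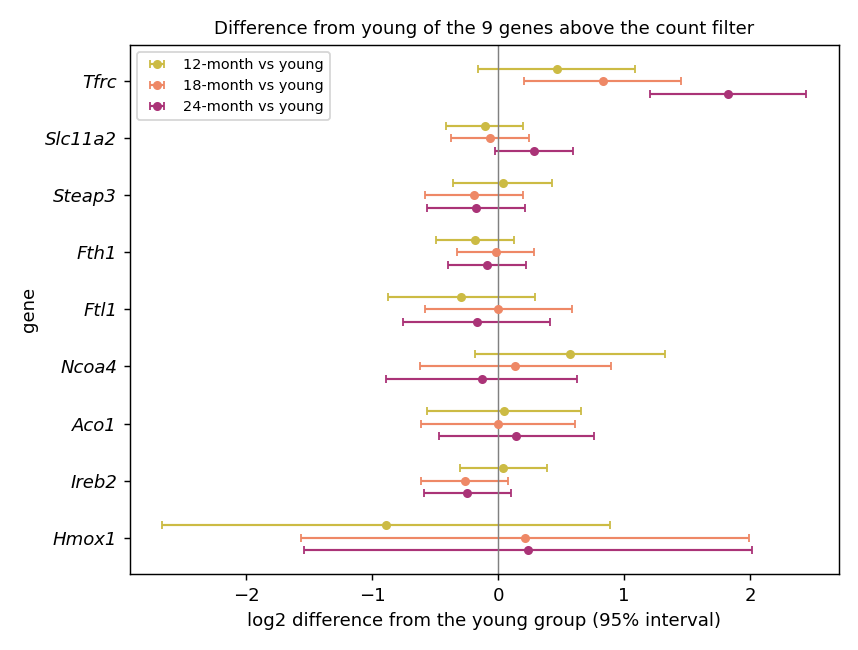
Log2 difference from the young group (horizontal axis) with its 95% interval (bars) for the 9 genes above the count filter, at 12, 18 and 24 months. Tfrc, which was chosen for its rise, lies at 1.83 at 24 months, and its bars are a description and no test. The intervals of the other 8 genes include 0 at each age.

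Precision differed among the genes. The 95% interval of the 24-month difference reached from −0.02 to 0.59 for Slc11a2 and from −0.59 to 0.10 for Ireb2. It was wider for Ncoa4, from −0.89 to 0.63, and for Ftl1, from −0.75 to 0.41. The coefficient of variation of Fth1 was 23.9% in the young group and 13.2% at 24 months, while that of Tfrc was 35.5% and 52.3%.

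Within an age, mice with more Tfrc did not have detectably more or less of the other genes. Each library was expressed as its deviation from the mean of its age, which removes the difference between ages that picked Tfrc. Of 8 genes correlated with Tfrc over the 20 libraries (permutation test within ages, 100000 permutations, two-sided), 0 passed at an adjusted p of 0.05. The largest was Ncoa4, with Pearson's r = 0.365 (permutation p = 0.0965, adjusted p = 0.772) and Spearman's rho = 0.304 (permutation p = 0.217, adjusted p = 0.651). Steap3 had r = −0.285 and rho = −0.311. The ferritin chains had r = −0.0742 for Fth1 and −0.206 for Ftl1, and the sensors had r = −0.0947 for Ireb2 and −0.0651 for Aco1. Slc11a2 had r = −0.0585 and Hmox1 r = 0.0301. Most of these values moved away from 0 when r was taken, with no test, without the 2 libraries farthest from the median Tfrc deviation. Without them r was 0.422 for Ncoa4, −0.293 for Steap3, −0.325 for Fth1, −0.293 for Ftl1, −0.420 for Aco1 and −0.297 for Slc11a2, and it changed sign to 0.157 for Ireb2 and to −0.0235 for Hmox1.

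The wider iron pathway was described by 103 further genes in 7 lists, of which 89 were above the count filter. In the comparison of all aged libraries with young, 0 of the 89 were called up and 1 was called down, beside 0.478% and 0.532% of all genes tested. At 18 months 1 was called up and 0 down, where 0.337% of all genes were called in each direction. At 12 months and at 24 months, and in the comparisons between aged groups, 0 were called. At an unadjusted p under 0.05 there were 12 genes at 12 months, 9 at 18 months, 12 at 24 months and 8 with the aged groups together, where 9.56%, 7.18%, 9.97% and 7.89% of all genes tested reached that mark. Between aged groups there were 14 (24-month against 12-month), 10 (18-month against 12-month) and 4 (24-month against 18-month), beside 14.7%, 7.43% and 5.31%. The median log2 difference of the 89 genes at 24 months was 0.09, beside 0.01 over all genes.

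The gene called up at 18 months was Cp, ceruloplasmin, a copper enzyme that oxidises iron as it leaves the cell. Its young libraries had normalized counts of 70.2, 80.2, 55.7, 78.4 and 37.0, and its 18-month libraries had 134.2, 198.2, 100.8, 89.6 and 360.7. Each of the 5 later libraries exceeded all the young ones, a separation found in 1.04% of all genes tested. Cp is named because it was called from these same libraries, so the separation is a description and no added support. The log2 difference was 1.30 (SE 0.31, adjusted p = 0.0431, limma) at 18 months, 0.44 (adjusted p = 0.717) at 12 months and 0.85 (adjusted p = 0.295) at 24 months. The Cp call was close to the threshold. The count of called genes at 18 months was 0 in 13 of 20 fits that left out 1 library each, namely young 1, 3, 4 and 5, 12-month 1, 2, 3 and 4, 18-month 1, 2 and 5, and 24-month 2 and 4, and it was also 0 with no filter on low counts, with only the 2 groups in the fit, and with voom on the recovered reads.

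The gene called down with the aged groups together was Alox15, a lipoxygenase that oxidises membrane lipids and is also made by macrophages. Its counts were 95.4, 285.5, 303.2, 128.2 and 153.7 in the young libraries. They ran from 37.1 to 123.2 at 12 months (median 40.8), from 21.1 to 123.2 at 18 months (median 78.3) and from 33.1 to 134.6 at 24 months (median 75.6). The aged and young ranges overlapped: the 2 lowest young libraries lay below the highest aged library. The log2 difference was −1.45 (SE 0.36, adjusted p = 0.0379, limma) with the aged groups together, and at single ages −1.79 (adjusted p = 0.0562), −1.32 (adjusted p = 0.318) and −1.26 (adjusted p = 0.256). The call was lost, with a count of 0, in 11 of the 20 fits that left out 1 library each, namely young 2, 3, 4 and 5, 12-month 2, 3 and 4, 18-month 3, and 24-month 2, 3 and 4, and with no filter. The macrophage marker sums given above were lower in the aged groups too, and their part in the Alox15 values was not tested.

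The counts in the single lists stand beside the shares of all genes called in the comparisons with young, 0.532% at 12 months to 1.01% with the aged groups together. In the uptake, reduction and endosome list, 0 of 9 genes were called in any of them, and the aged minus young difference ran from −0.93 for Ltf, lactoferrin, an iron-binding protein of tears and neutrophils (adjusted p = 0.207, limma), to 0.41 for Steap2, a metal reductase (adjusted p = 0.936). The other transferrin receptor, Tfr2, had 0 reads in every library, which allows up to 3 reads in each. Trf, transferrin itself, had between 0 and 19.3 normalized counts and was below the filter. In the storage and chaperone list, 0 of 7 were called, and the difference ran from −0.21 for Glrx3 to 0.20 for Bola2, partners in handing on iron-sulfur clusters.

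In the export and hepcidin list, 1 of 7 genes was called, which was Cp at 18 months, where 0.337% of all genes were called up. With the aged groups together the difference ran from −0.93 for Bmp6, a signal that raises hepcidin in the liver (adjusted p = 0.653, limma), to 0.86 for Cp (adjusted p = 0.196). In the iron regulation list, 0 of 10 were called, from −0.40 for Fbxl5, the part of the ubiquitin ligase that degrades iron regulatory protein 2 when iron is plentiful (adjusted p = 0.728), to 0.40 for Zc3h12a, a ribonuclease that cuts Tfrc messenger RNA (adjusted p = 0.906). From young to 24 months, Fbxl5 had mean counts of 258.7 ± 39.8, 188.04 ± 85.4, 179.9 ± 55.5 and 247.9 ± 30.0 (SD, n = 5 each), so that the 24-month mean was close to that of the young group. Zc3h12a had 78.4 ± 28.3, 70.8 ± 40.4, 123.3 ± 17.7 and 136.3 ± 48.4.

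In the heme list, 0 of 16 genes were called, and the difference ran from −0.69 for Uros to 0.48 for Alas1, which makes the first step of heme synthesis outside the red cell (adjusted p = 0.412, limma). Alas1 had mean counts of 96.8 ± 21.2, 121.8 ± 32.8, 145.5 ± 40.4 and 139.5 ± 25.1 (SD, n = 5 each) from young to 24 months. In the mitochondrial iron and iron-sulfur cluster list, 0 of 27 were called, from −0.53 for Abcb8 to 0.42 for Iba57, and the median difference was 0.13 with the aged groups together, 0.01 at 12 months, −0.01 at 18 months and 0.22 at 24 months. In the ferroptosis and lipid peroxide list, 1 of 13 was called, which was Alox15, and the difference ran from −1.45 for Alox15 to 1.16 for Slc7a11, the cystine transporter (adjusted p = 0.798), which had between 0 and 56.8 normalized counts.

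**Figure D4:**
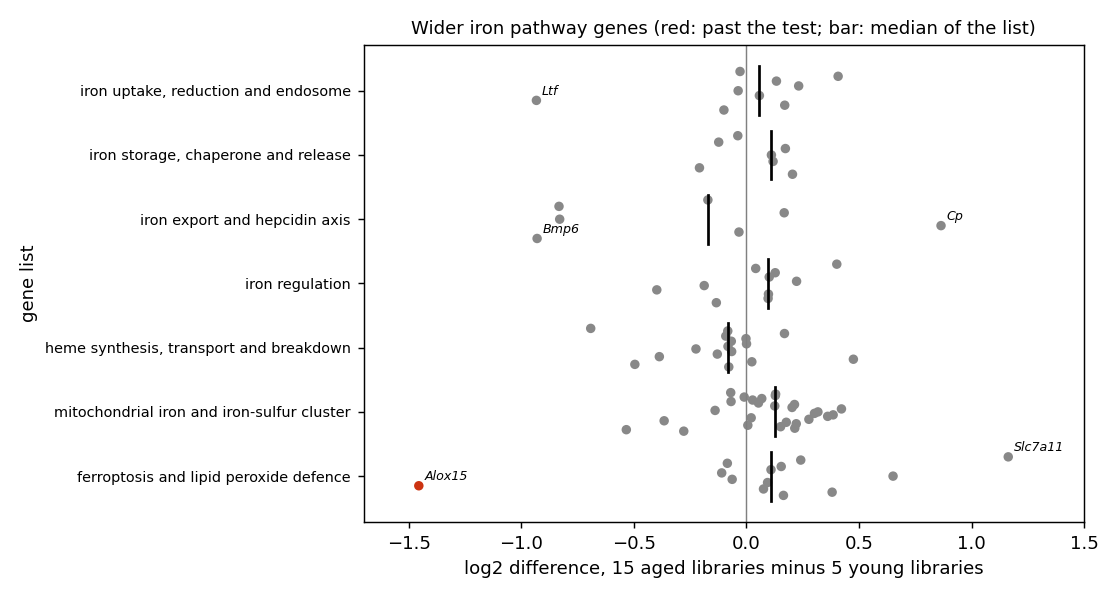
Log2 difference between the 15 aged and the 5 young libraries (horizontal axis) for the 89 wider iron pathway genes above the count filter, in 7 lists (vertical axis); points are genes, red marks the gene that passed the test and black bars are list medians. Alox15 lies at −1.45, and Cp at 0.86 and Slc7a11 at 1.16 did not pass with the aged groups together.

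Genes whose pattern over the 20 libraries was most like that of Tfrc were found by Pearson's r on the log2 values, as a description over libraries that share the same 4 ages. Among the nearest were Bcl2l15 (r = 0.718), Fanca (r = 0.680), Nyap1 (r = 0.672) and Cdca2 (r = 0.666). Bcl2l15 had a mean count of 82.8 ± 20.8 in the young group, 145.3 ± 37.99 at 12 months, 201.6 ± 34.3 at 18 months and 229.0 ± 58.0 at 24 months (SD, n = 5 each). Among the listed iron genes the likeness was greatest for Slc11a2 (r = 0.377) and least for Ireb2 (r = −0.389). Slc11a2 ranked 569 among the genes tested other than Tfrc. These values include the age difference that picked Tfrc, so this order is no finding. With age removed, Slc11a2 had r = −0.0585 and ranked 6568.

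With age removed, the 5 nearest genes were Dbf4 (r = 0.800), Fem1c (r = 0.777), Ankdd1b (r = 0.759), Pclaf (r = 0.728) and Vti1b (r = 0.726), none of which was among the genes above. Dbf4 activates a kinase that starts DNA replication and Pclaf binds the replication clamp. Dbf4 had a mean count of 180.2 ± 56.6 in the young and 158.2 ± 53.7 in the 24-month group, and Pclaf 378.8 ± 132.9 and 495.9 ± 151.1 (SD, n = 5 each). The proliferation markers were then looked at beside Tfrc, a choice made after these genes were seen. Of these 10 markers, 9 had a correlation above 0 with Tfrc within ages, from −0.104 for Mcm5 to 0.591 for Mki67, with a median of 0.266 beside −0.005 over all genes tested. In the comparisons with young, 0 of the 10 proliferation markers were called at any age, beside the 0.532% to 0.78% of all genes given above. Their median log2 difference was −0.12 at 12 months, −0.10 in the 18-month group and 0.24 in the 24-month group, where they ran from −0.27 for Mki67 to 0.49 for Mcm2. The part of proliferation in the Tfrc values was not tested.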

How the data were processed

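Corneal epithelium of 20 mice was sequenced from the 3′ end with single-end reads. Per the labels and the study's methods, the authors trimmed reads with cutadapt, checked them with FastQC, used STAR for alignment to GRCm38 and HTSeq for gene counts, and divided by DESeq2 size factors. The deposited values are log2(normalized count + 1). For each library, 100% of the values gave whole reads (tolerance 0.01), with size factors from 0.760 to 1.33. The deposited fold changes and p-values of the authors' own comparisons, and 3 smaller tables, were not used.

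The 11288 of 24552 genes whose normalized count averaged at least 10 were fitted with limma 3.58.1 in R 4.3.3 (age group, trended variance). Aged against young was fitted with 2 groups. This replaced the count test of the study because the values are on a log scale. Single genes were also tested by exact permutation over all 252 splits (numpy 2.4.6). Correlations used 100000 permutations within ages, with ranks from scipy 1.17.1. The analysis was tested on simulated data. Alternatives were quantile normalization, other filters, pseudocounts and fold thresholds, 2-group fits, voom on recovered reads, a replicate block and leaving out each library. The p-values measure the spread between single animals.

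The members, lists, tests and naming rule were chosen with earlier results of these data known. The text names the 10 genes, each called gene and the extremes of each wider list with all aged libraries, the 5 genes nearest to Tfrc by each measure (1 of which is not reported here), a defining marker for the cell types, and the near-copies of the ferritins by count. In the lists, 6 genes matched by an older symbol. Positions came from RefSeq by gene identifier and transcript sequences from GENCODE, both on GRCm38.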

Additional observations from a re-analysis of the deposited data

Results flagged for a closer look

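In 40 groups of 5 libraries (10 genes at 4 ages), the highest or lowest library stood apart from the nearest of the others, by Dixon's ratio on the log2 values with a critical value of 0.71, in 4. Chance gives such a result in about 1 of 20 groups. Fth1 at 24 months was 14125 in replicate 5 and between 10304 and 11058 in the others, and replicate 5 was also the 24-month library with the highest Tfrc count. Slc40a1 at 12 months was 3.68 in replicate 1 and 0 in the others, which fixes the ratio at its highest value whatever the single count, so it says nothing about that library. Aco1 at 18 months was 62.2 in replicate 2 and between 93.2 and 106.1 in the others. Hmox1 in the young group was 1.06 in replicate 4 and between 10.4 and 15.5 in the others. The scale matters: on the normalized counts themselves 7 groups passed the critical value, of which 2 (Fth1 and Slc40a1) also passed on the log2 values. The other 5 were Tfrc in the young (replicate 1, 111.8), 18-month (replicate 1, 250.02) and 24-month (replicate 5, 496.9) groups, Slc11a2 at 12 months (replicate 3, 555.002) and Ncoa4 at 18 months (replicate 2, 78.6).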

How the results depend on the processing

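Under the alternatives, the Tfrc difference at 24 months ranged from 1.56 to 2.01 with 1 library left out and from 1.70 to 1.87 under the other settings. For the other 8 genes, 944 tested values under alternatives gave 0 at an adjusted p of 0.05 or less (lowest 0.323), and the median of all genes moved by at most 0.0208. Of 1063 values of single genes, 46 changed sign. Outside the fits that left out a library, these were Hmox1 with the aged groups together (0.0448 under quantile normalization) and Aco1 at 18 months. Aco1 was −0.0381 with voom and −0.00813 with a pseudocount of 10. Among the correlations, which are not part of the 1063 values, that of Hmox1 with Tfrc changed sign (rho = −0.0715).

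Leaving out 1 library at a time gave these lowest and highest log2 differences from young. Aco1 ran from −0.132 to 0.235 at 12 months, −0.176 to 0.191 at 18, −0.0302 to 0.337 at 24 and −0.113 to 0.254 with the aged groups together. Ireb2 ran from −0.0305 to 0.108 and Steap3 from −0.0904 to 0.146 at 12 months. Fth1 ran from −0.145 to 0.0877 at 18 months, −0.212 to 0.0210 at 24 and −0.221 to 0.0113 together. Ftl1 ran from −0.186 to 0.129 at 18 months. Hmox1 ran from −0.338 to 0.414 at 18 months, −0.314 to 0.561 at 24 and −0.696 to 0.0727 together. Ncoa4 ran from −0.0686 to 0.274 at 18 months and −0.302 to 0.0216 at 24. Slc11a2 ran from −0.0326 to 0.0819 together. The number of wider pathway genes called ran from 0 to 2 at 12 months, 0 to 1 at 18 months, 0 to 1 with the aged groups together and 0 to 1 between 12 and 24 months.

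The number of wider pathway genes called at 18 months was 0, in place of 1, with no filter on low counts, with only the 2 groups compared, with voom and with the replicate block. With the aged groups together it was 0 with no filter and with the replicate block. Replicate numbers do not pair these mice: of 30 pairs of same-numbered libraries, 3 had a correlation of deviations over 0.1 (range −0.303 to 0.159), and 1 of the 20 libraries was closest to its own number. The cause of these shifts was not tested. Low counts limit Slc40a1 and Hmox1, and shared sequence limits the ferritins.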
